A study of Mus musculus with 6 samples.

Results

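The genes described are 9 transcription factor genes of the skeletal muscle programme, chosen by name: Myod1, Myog, Myf5, Myf6, Pax7, Mef2a, Mef2c, Mef2d and Six4. All 9 were among the 23154 genes of the count tables, and all 9 passed the filter on low counts that left 12509 genes for testing. RNA-seq was done on C2C12, an established line of mouse myoblasts, the dividing precursors of skeletal muscle fibres. A stable line carrying pINDUCER20b-HA-NUR77, a construct from which doxycycline (Dox) induces HA-tagged NUR77, was compared with one carrying pINDUCER20b-GFP. NUR77 is the orphan nuclear receptor encoded by Nr4a1. Each group had 3 libraries, each from 1 dish (N1, N2 and N3 for HA-NUR77 and G1, G2 and G3 for GFP, by their replicate numbers), and all 6 dishes received 1 µg/mL doxycycline for 18 hours in medium with 10% fetal calf serum. Each construct is represented by 1 stable line, so a difference between the lines and an action of NUR77 cannot be told apart. The growth text of the GFP libraries also names the HA-NUR77 line, while their titles and their genetic modification say GFP. Mouse Nr4a1 itself stood at 22.6, 19.4 and 25.5 CPM in HA-NUR77 and 19.4, 13.4 and 28.2 CPM in GFP, overlapping (edgeR adjusted p = 0.698), and since the labels give neither the species nor the sequence of the induced cDNA, these counts neither bear out nor contradict the HA-NUR77 label.

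Libraries held 13906096 to 22821446 counts. Levels are given in CPM, the share of a library's counts scaled by its total and by edgeR's TMM factor, and a change is HA-NUR77 over GFP. A gene was called changed at an edgeR quasi-likelihood adjusted p under 0.05. Muscle lineage markers were expressed: all 8 of the myoblast list (Myod1, Myf5, Des, Cdh15, Ncam1, Itga7, Vcam1 and Chrna1) were tested, and their summed level was 8220 to 9140 CPM in HA-NUR77 and 5560 to 7340 CPM in GFP. Of these 2 were called higher and 0 lower, beside 12.4% and 13.2% of all tested genes. Des, Cdh15, Itga7 and Chrna1 are also on the differentiation list below, so these markers do not tell dividing myoblasts from differentiating ones. The embryonic myosin gene Myh3 averaged 2870 CPM in GFP and 4400 CPM in HA-NUR77. Of the markers of other cell types, the adipocyte genes Adipoq, Plin1, Cfd and Lep had no read, all 4 endothelial markers stayed under 1 CPM in every library, as did 4 of 6 macrophage markers (Ptprc, Cd68, Adgre1 and Lyz2), 3 of 4 Schwann markers and 6 of 8 osteoblast and chondrocyte markers. Called higher in these lists were Pparg (4.2 ± 1.03 against 2.43 ± 0.182 CPM), Csf1r (1.35 ± 0.47 against 0.426 ± 0.287 CPM) and Sox9 (64.1 ± 1.31 against 52.3 ± 0.999 CPM; SD, n = 3). Csf1r averaged under the filter minimum of 0.629 CPM in GFP. Its place among the tested genes therefore depended on HA-NUR77 libraries, where it was higher. The fibro-adipogenic list summed to 664 to 813 CPM in HA-NUR77 and 498 to 542 CPM in GFP, with 3 of 5 tested markers higher and 1 lower, and the smooth muscle list to 2450 to 3660 and 3290 to 3650 CPM, with 2 of 4 lower and Myh11 under 1 CPM. The part of these genes in the results below was not tested.

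In muscle, 4 related basic helix-loop-helix (bHLH) proteins set the lineage and drive differentiation: MyoD (Myod1) and Myf5 act early and commit cells, myogenin (Myog) acts as myoblasts stop dividing and fuse, and Mrf4 (Myf6) is most abundant in mature fibres. They bind the E-box, CANNTG, as dimers with the ubiquitous E proteins, and Id proteins block them by taking the E proteins away. MEF2 proteins (Mef2a, Mef2c, Mef2d) bind AT-rich sites, often near E-boxes, and act with the MyoD family, sine oculis homeodomain proteins such as Six4 bind the MEF3 element in muscle promoters, and Pax7 marks satellite cells, the stem cells of muscle.

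The stretches just upstream of Myog, Myf5 and Mef2c show how differently the start regions of these genes are built, and are printed because these genes had, in turn, the same mean in both groups, a small difference and the largest difference among the abundant genes. Each is the 200 bases before a RefSeq start site on GRCm38.p6, 5′ to 3′ on the strand of the gene, with capitals marking matches to the motifs searched. Myog is chr1:134289804-134290003 on the plus strand, Myf5 is chr10:107486135-107486334 on the minus strand and Mef2c, at 1 of its 3 listed start sites, is chr13:83503834-83504033 on the plus strand.
Myog: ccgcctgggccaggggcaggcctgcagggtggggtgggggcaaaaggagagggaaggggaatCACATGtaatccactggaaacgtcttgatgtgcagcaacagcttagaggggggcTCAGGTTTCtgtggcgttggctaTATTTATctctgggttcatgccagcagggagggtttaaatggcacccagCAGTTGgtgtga
Myf5: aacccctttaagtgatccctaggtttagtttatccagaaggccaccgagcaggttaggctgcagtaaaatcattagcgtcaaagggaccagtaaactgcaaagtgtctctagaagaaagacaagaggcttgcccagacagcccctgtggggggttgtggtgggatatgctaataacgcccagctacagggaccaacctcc
Mef2c: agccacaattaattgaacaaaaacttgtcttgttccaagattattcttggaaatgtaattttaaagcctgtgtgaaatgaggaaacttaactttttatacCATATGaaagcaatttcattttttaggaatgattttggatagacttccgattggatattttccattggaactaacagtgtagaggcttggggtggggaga

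Promoter windows of 250 bases before to 50 after a start site were found for 7 of the 9 genes, and each motif was searched on both strands. The Myog window held 2 E-boxes, CACATG at -138 to -133 and CAGTTG at -12 to -7 from the start site, a MEF3 element (TCAGGTTTC) at -84 to -76 and a MEF2 core (TATTTAT) at -61 to -55. The window of the printed Mef2c start site held the E-boxes CAAGTG at -234 to -229 and CATATG at -100 to -95. Another Mef2c start site had CAGATG at -245 to -240. The windows of Mef2d, Pax7, Mef2a, Myf5 and Six4 held no E-box. Of 32817 promoter windows, 72.3% held an E-box, 5.6% the MEF2 core and 0.43% the MEF3 element. A second MEF3 match lay at -99 to -91 of a Six4 start site, on the other strand, and the longer MEF2 consensus, found in 3.19% of windows, overlapped the start site of Mef2a from -2 to 8. That consensus had 0 matches in the Myog window. The MEF2 core was added to the search after sequence was seen, so its match in Myog is description only. Neither the NUR77 element NBRE (AAAGGTCA, 1.51% of windows) nor the YY1 motif (GCCATNTT, 6.04%) matched in any window of the 7 genes. A match describes letters in the window and is not a binding site.

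Myogenin transcript had the same mean in both groups, and MyoD transcript was higher on average without passing the test. Mrf4 transcript was scarce, at 6 to 9 reads a library in HA-NUR77 and 11 to 40 in GFP. Of the 9 genes, edgeR called 0 higher and 1, Myf6, lower, where 12.4% of all tested genes were higher and 13.2% lower (25.6% in either direction). At an unadjusted p under 0.05 there were 4 (Myod1 upward, Myf6, Mef2a and Mef2c downward), against 40.6% of all tested genes. DESeq2 called 1 higher (Myod1) and 2 lower (Myf6 and Mef2c), beside 12.9% and 15.0% of all genes (27.9% in all), and limma-voom 0 higher and 1 lower (Myf6), beside 12.5% and 13.4% (26.0%). Libraries with the same replicate number deviated together, and with that number as a block 1 gene was higher (Myod1) and 4 were lower (Myf5, Myf6, Mef2a and Mef2c), where 23.5% and 24.6% of all genes were (48.1% in either direction). Read in either direction, 1, 3, 1 and 5 of the 9 genes in these fits are not far from what the same fits called over all genes.

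**Figure D1:**
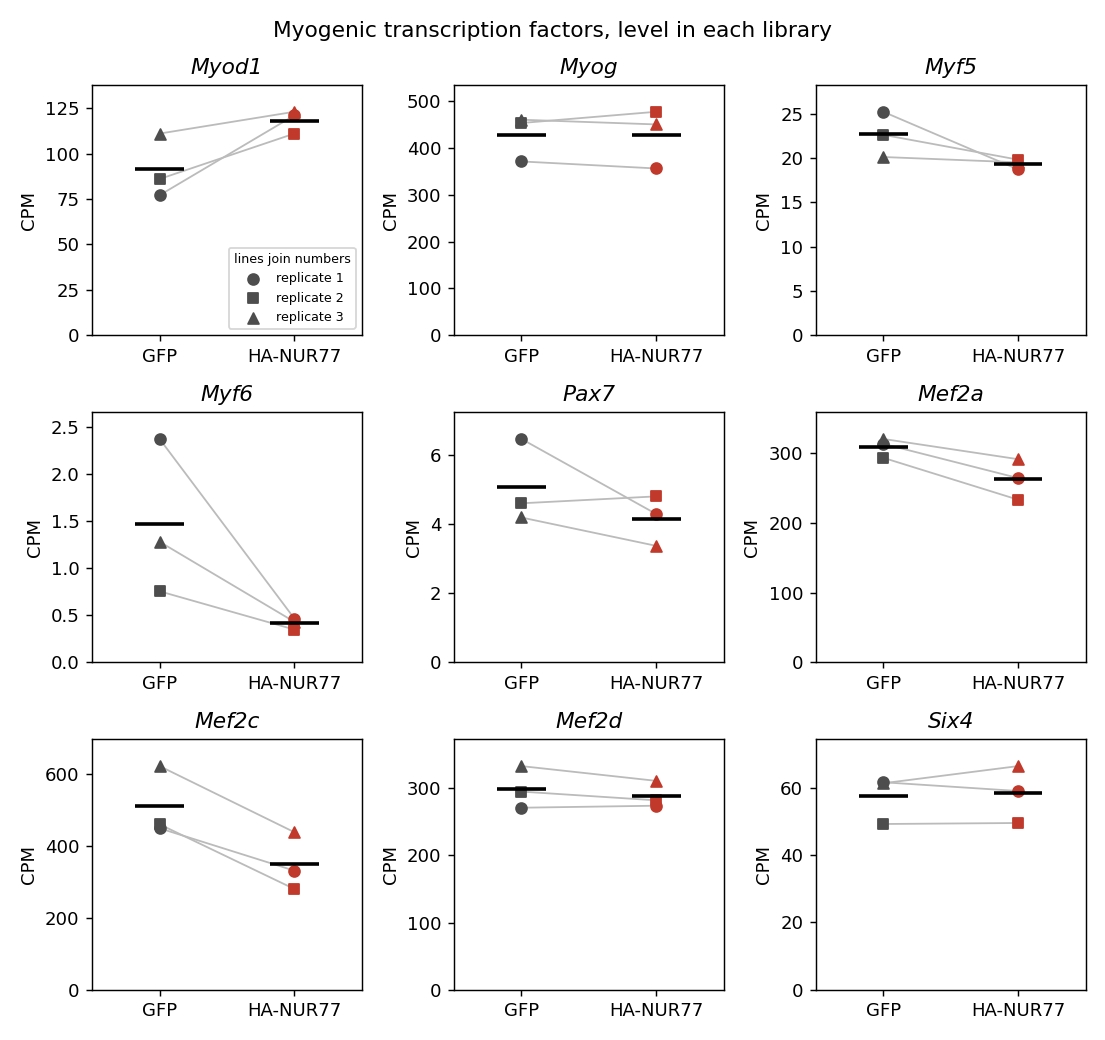
Level of each of the 9 genes in CPM (linear axis from 0) in the 3 GFP libraries (grey) and the 3 HA-NUR77 libraries (red); bars are group means and lines join libraries of the same replicate number. All 3 HA-NUR77 libraries lie below all GFP libraries for Myf5, Myf6, Mef2a and Mef2c, while Myog overlaps at a mean of 428 CPM in both groups.

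Myog (ENSMUSG00000026459; GRCm38 chromosome 1, 134289989 to 134292548, plus strand) is the switch gene of terminal differentiation. It stood at 356, 477 and 450 CPM in N1, N2 and N3 and at 371, 453 and 460 CPM in G1, G2 and G3, the order used for every gene. Replicate 1 was the lowest library in both groups, and the groups overlapped. The means were 428 ± 63.7 and 428 ± 49.4 CPM (SD, n = 3), and the fitted fold was 1.0 with a 95% interval of 0.806 to 1.24 (edgeR adjusted p = 1.0). With the block the interval narrowed to 0.916 to 1.09 (adjusted p = 0.955). With an offset for exon length added to the block, Myog came out lower by a log2 of −0.16 (SE 0.06, adjusted p = 0.0478).

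Myod1 (ENSMUSG00000009471; chromosome 7, 46376474 to 46379099, plus strand), the founding regulator of the family, had 121, 111 and 123 CPM in HA-NUR77 and 77.1, 86 and 111 CPM in GFP. The third GFP library reached the lowest HA-NUR77 library, so the groups met at 111 CPM, and the GFP libraries were spread more widely. The change was 1.29-fold (95% interval 1.04 to 1.6) and did not pass (log2 0.37, SE 0.13, edgeR adjusted p = 0.0754). With the replicate block it rose (log2 0.39, adjusted p = 0.00582), as it did without G3 (log2 0.53, adjusted p = 0.00816). Of the 6 fits that each left out a library, only the 1 without G3 passed. The weakest was that without G1 (log2 0.26, edgeR adjusted p = 0.204). Within numbers 1, 2 and 3 the log2 difference was 0.66, 0.37 and 0.14, upward in each but of unequal size. In these bulk samples a difference in the share of cells expressing a gene and in RNA per cell cannot be told apart.

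Myf5 (ENSMUSG00000000435; chromosome 10, 107482908 to 107486134, minus strand), which commits precursors early, had 18.7, 19.8 and 19.5 CPM in HA-NUR77 and 25.2, 22.6 and 20.1 CPM in GFP. Every HA-NUR77 library was below every GFP library, though the nearest were close. The log2 change of −0.23 (SE 0.1) did not pass (edgeR adjusted p = 0.125) and was past the threshold with the block (adjusted p = 0.0477). Its differences by number were −0.44, −0.20 and −0.04.

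Myf6 (ENSMUSG00000035923; chromosome 10, 107492853 to 107494737, minus strand) lies 6718 bases from Myf5 on the same strand, and was the rarest of the 4 family members. It had 9, 8 and 6 reads in HA-NUR77 and 40, 11 and 19 in GFP, or 0.465, 0.349 and 0.431 CPM against 2.37, 0.755 and 1.28 CPM. All HA-NUR77 libraries were lower, and G1 held more reads than the other GFP libraries together. It passed the filter through the GFP libraries alone, which were the only ones above the minimum of 0.629 CPM, so its place among the tested genes, and its count as the 1 gene called, depended on its being higher there. With no filter, where every gene with a read was tested, its log2 change was −1.84 (SE 0.44, edgeR adjusted p = 0.0107). Myf6 fell by 1.84 on the log2 scale (SE 0.47, edgeR adjusted p = 0.0268), or 3.59-fold with a 95% interval of 0.13 to 0.596 for the fold of HA-NUR77 over GFP. The ratio of summed reads, 70 to 23, scaled by depth, was 3.67 in favour of GFP (exact binomial 95% interval 2.26 to 6.16, counting error only). The call was lost without G1 (log2 −1.30, adjusted p = 0.083), without N1, N2 or N3 (adjusted p = 0.0766, 0.0757 and 0.0578), and when genes under a mean of 1 CPM were left out it was not tested.

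Of the MEF2 genes, Mef2c was the one with the largest difference, Mef2a differed by less and Mef2d hardly at all. Mef2c (ENSMUSG00000005583; chromosome 13, 83504034 to 83667080, plus strand), the MEF2 gene most tied to differentiating muscle, had 331, 280 and 438 CPM in HA-NUR77 and 449, 460 and 622 CPM in GFP. Replicate 3 was the highest library of each group, and the highest HA-NUR77 library lay just under the lowest GFP library. The fitted fold was 0.684 (95% interval 0.504 to 0.93; log2 −0.55, SE 0.19), which did not pass (edgeR adjusted p = 0.0697). With the block it fell (fold 0.681, 95% interval 0.618 to 0.75; adjusted p = 2.83e-05), and by number the log2 differences were −0.44, −0.72 and −0.51. It also passed with DESeq2 (adjusted p = 0.0166) and without N3 (log2 −0.74, edgeR adjusted p = 0.0248). The fit without N3 was the only 1 of the 6 leaving out a library that passed (adjusted p up to 0.175). Limma-voom did not call Mef2c (adjusted p = 0.0657).

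Mef2a (ENSMUSG00000030557; chromosome 7, 67231163 to 67372858, minus strand), the broadly expressed relative, had 264, 233 and 291 CPM in HA-NUR77 and 313, 293 and 320 CPM in GFP. The groups did not overlap, with N3 just under G2. The log2 change was −0.23 (SE 0.09; edgeR adjusted p = 0.107), and −0.24 with the block, where it passed (adjusted p = 0.00497). Mef2d (ENSMUSG00000001419; chromosome 3, 88142372 to 88172086, plus strand) had 274, 282 and 311 CPM against 271, 295 and 333 CPM. These values overlapped throughout (log2 −0.05, SE 0.10, adjusted p = 0.717), and the 95% interval of the fold was 0.827 to 1.13.

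Exon length, counted over all annotated exons of a gene, moved with these values. Over all tested genes the median log2 change was 0.16 for genes with under 2 kb of exon and −0.21 for the 729 genes with 12 kb or more, a bin that holds Mef2a (14.68 kb) and Mef2c (15.72 kb). With a smooth offset in exon length for each library, the log2 change was −0.34 for Mef2c (edgeR adjusted p = 0.204; 0.00152 with offset and block) and −0.04 for Mef2a (0.78 and 0.611). The fall of Mef2a with the block was therefore not past the threshold once the length of all annotated exons was adjusted for. The longest coding transcripts are shorter, 5538 bases for Mef2a and 6277 for Mef2c. Genes with 4 to 8 kb over all annotated exons had a median log2 change of −0.01. That bin uses a different length from the coding transcripts and does not hold Mef2a or Mef2c. An offset by the longest coding transcript was not fitted. Myf5, with 2.08 kb, went to −0.34 (adjusted p = 0.0548; 0.011 with offset and block) and Myod1, with 1.86 kb, to 0.25 (0.177 and 0.0244). A few exon bases of Mef2a and Mef2d are shared with genes on the opposite strand, 302 with Lysmd4 and 531 with 1700113A16Rik. Lysmd4 had 261 to 416 reads a library and 1700113A16Rik 4 to 12, far fewer than Mef2a or Mef2d.

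**Figure D2:**
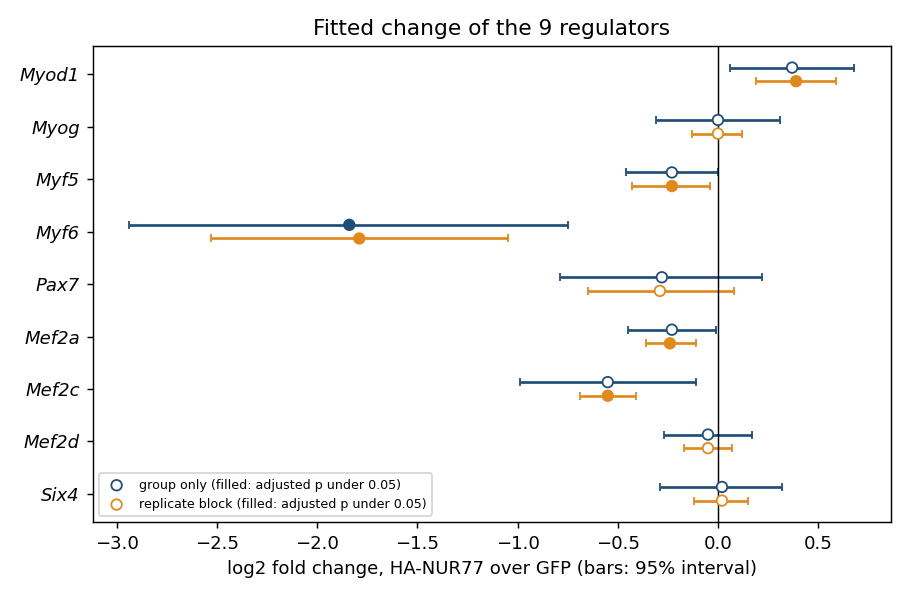
Fitted log2 fold change of HA-NUR77 over GFP with its 95% interval for each gene, without a block (blue) and with the replicate number as a block (orange); filled points have an adjusted p under 0.05. Only Myf6 is filled in blue, and Myod1, Myf5, Myf6, Mef2a and Mef2c are filled in orange.

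Neither upstream regulator passed. Pax7 (ENSMUSG00000028736; chromosome 4, 139737062 to 139833528, minus strand) was low, at 4.29, 4.8 and 3.37 CPM in HA-NUR77 and 6.46, 4.6 and 4.19 CPM in GFP. The groups overlapped, with G1 above the other libraries (log2 −0.28, SE 0.22, edgeR adjusted p = 0.358). Six4 (ENSMUSG00000034460; chromosome 12, 73099609 to 73113456, minus strand), a homeodomain protein that binds the MEF3 element, had 59, 49.5 and 66.4 CPM against 61.6, 49.2 and 61.3 CPM. Replicate 2 was the lowest library of both groups, and the fold was 1.01 with a 95% interval of 0.82 to 1.25 (adjusted p = 0.927). Of the 9 genes, 5 had the same sign of difference within all 3 replicate numbers (1 upward, 4 downward), where 70.3% of all tested genes did; the signs of Myog, Pax7, Mef2d and Six4 were mixed. Groups did not overlap for 4 genes, all lower (22.5% of all tested genes), and for 0 higher (23.0%; 45.6% in either direction).

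Levels of different genes were compared per kb of exon. In GFP, Myog led with 286 ± 33.1 CPM per kb, followed by Mef2d at 50 ± 5.21 and Myod1 at 49.2 ± 9.6, which overlapped each other, Mef2c at 32.5 ± 6.16, Mef2a at 21 ± 0.927, Myf5 at 10.9 ± 1.24, Six4 at 5.28 ± 0.652, Myf6 at 1.16 ± 0.652 and Pax7 at 0.867 ± 0.206 (SD, n = 3). Apart from Mef2d with Myod1 and Myf6 with Pax7, neighbours in this order did not overlap between their libraries. In HA-NUR77 Myog stood at 286 ± 42.6 CPM per kb, then Myod1 at 63.6 ± 3.32 and Mef2d at 48.3 ± 3.3, which no longer overlapped, and Mef2c at 22.2 ± 5.13 and Mef2a at 17.9 ± 1.99, which did. Pax7 at 0.709 ± 0.123 stood above Myf6 at 0.328 ± 0.0471 CPM per kb. The place of the MEF2 genes rests on the length used: by the longest coding transcript in place of all annotated exons, Mef2c was next to Myog in GFP at 81.3 ± 15.4 CPM per kb, with Mef2a at 55.7 ± 2.46 and Mef2d at 55.5 ± 5.78.

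Within the MyoD family, Myog made up 76.2%, 82.1% and 79.9% of the summed level per kb in HA-NUR77 and 81.7%, 84% and 81.3% in GFP. The groups overlapped and differed by −2.97 percentage points (exact two-sided permutation p = 0.3, where 0.1 is the smallest that 3 against 3 libraries allow). Myod1 made up 20.9%, 15.4% and 17.5% against 13.6%, 12.8% and 15.8% (exact permutation p = 0.2). Within the MEF2 family, Mef2c made up 24.9%, 22% and 27.9% in HA-NUR77 and 30%, 29.7% and 33.8% in GFP, with no overlap (−6.26 points, exact permutation p = 0.1). Mef2d took the larger share in HA-NUR77, 53.9%, 58.3% and 52.2% against 47.6%, 50% and 47.5% (exact permutation p = 0.1), and the share of Mef2a was 20.2 ± 0.826% against 20.4 ± 1.89% (SD, n = 3; exact permutation p = 0.9). Per kb of the longest coding transcript, Mef2d averaged 34.4% in HA-NUR77 and 28.8% in GFP, and Mef2c 35.3% and 42.0%. Which gene held the larger share therefore rested on the length used. Reads of Mef2c per read of Mef2d, a ratio that needs no scaling by library depth, were 1.21, 0.992 and 1.41 in HA-NUR77 and 1.66, 1.56 and 1.87 in GFP. The trend with exon length does not cancel in this ratio or in the shares, as Mef2c has 15.72 kb of exon and Mef2d 5.98 kb. With the length offset the log2 change was −0.34 for Mef2c (edgeR adjusted p = 0.204, and 0.00152 with the block). For Mef2d it was −0.02 (0.874 and 0.773).

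**Figure D3:**
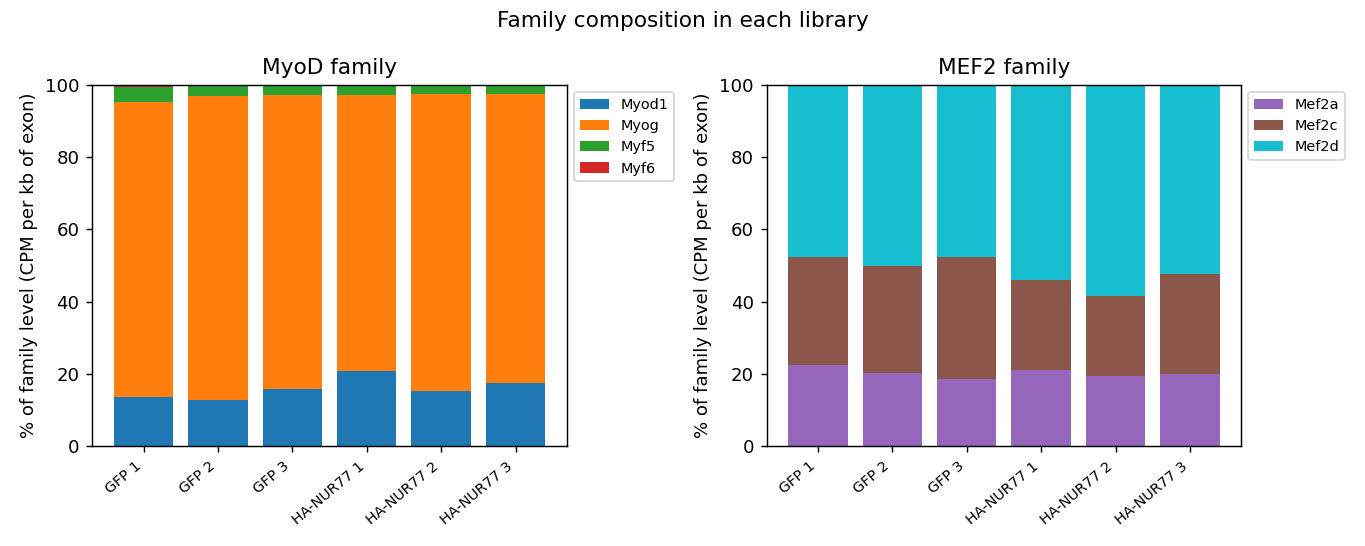
Share of each gene in the summed level of its family in each of the 6 libraries, for the MyoD family and the MEF2 family. Levels are CPM per kb of all annotated exons, stacked to 100%. Myog fills 76.2% to 84% of the MyoD family in every library, and Mef2c fills less of the MEF2 family in all HA-NUR77 libraries (at most 27.9%) than in any GFP library (at least 29.7%).

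Genes that work with the 9 regulators were counted in lists. Over all tested genes 12.4% rose and 13.2% fell, and 23.5% and 24.6% with the block, against which each count below is read. Of the E proteins Tcf3, Tcf4 and Tcf12, 2 fell and 1 did not pass, and all 3 fell with the block. Tcf4, the E protein gene with the most counts, went from 458, 379 and 380 CPM in GFP to 227, 180 and 229 CPM in HA-NUR77. It was 1.91-fold lower (log2 −0.94, SE 0.12, edgeR adjusted p = 0.00232), with no overlap. With the length offset its log2 change was smaller, −0.62 (edgeR adjusted p = 0.00306). Tcf3 was 1.27-fold lower (log2 −0.35, SE 0.10, adjusted p = 0.0432), and Tcf12 stood at a log2 of −0.28 (adjusted p = 0.0602). Without N1, N3, G1 or G2, 1 of the 3 was lower, as with library totals only or upper-quartile factors.

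Antagonists of bHLH proteins moved both ways. Of 13 tested, 5 fell, 2 rose and 6 did not pass, with a median log2 change of −0.37 beside 0.01 over all tested genes, of which 13.2% fell and 12.4% rose. With the block 7 fell and 2 rose, beside 24.6% and 23.5% of all genes. Id3, an inhibitor that sequesters E proteins, had 5.11, 4.93 and 3.73 CPM in HA-NUR77 and 23.9, 21.3 and 19.6 CPM in GFP. Each GFP library was above 19 CPM and each HA-NUR77 library under 6 CPM, a 4.66-fold fall (log2 −2.22, SE 0.14, edgeR adjusted p = 0.000141). Its relative Id1 fell 2.09-fold (adjusted p = 0.00467), the repressor Zeb1, which binds E-box sequences, 1.51-fold (adjusted p = 0.00321), Snai1 1.66-fold (adjusted p = 0.00387) and Bhlhe41 1.31-fold (adjusted p = 0.0239). The genes that rose were Hey1, a Notch-responsive repressor, from 5.2 ± 1.73 to 13.8 ± 3.11 CPM (SD, n = 3; log2 1.42, adjusted p = 0.00882), and Msc, encoding musculin, from 0.539 ± 0.18 to 1.79 ± 0.325 CPM (log2 1.72, adjusted p = 0.00849). Msc passed the filter through the HA-NUR77 libraries, where it is high: with 10, 10 and 5 reads in GFP, only G2 was above the minimum there.

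Relatives of Six4, Pax7 and the MEF2 genes were few. Of 12 listed, 11 were in the tables and 6 were tested, and of these 3 fell and 1 rose. Eya4, a coactivator of sine oculis homeodomain proteins, went from 84.5, 65.3 and 73.2 CPM in GFP to 44.1, 33.3 and 37.2 CPM, a 1.95-fold fall (edgeR adjusted p = 0.00304). Eya1 fell 1.33-fold (edgeR adjusted p = 0.015) and Six5 1.51-fold (adjusted p = 0.0417). With no filter, or without N1, N3 or any 1 of the GFP libraries, 0 rose. Without N1 or G1, 1 relative was lower. Pax3, the paralogue of Pax7, stood at 0.14 and 0.153 CPM and was not tested.

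Among 12 tested genes that act on MEF2 proteins, 3 rose and 3 fell (12.4% and 13.2% of all tested genes), and 6 and 4 did with the block (23.5% and 24.6%). The kinase genes Camk2d (1.37-fold, edgeR adjusted p = 0.0148), Mapk14 (1.23-fold, adjusted p = 0.0163), whose product phosphorylates MEF2, and Camk2g (1.19-fold, adjusted p = 0.0257) rose. Hdac7 (1.63-fold lower, adjusted p = 0.0189) and Hdac4 (1.28-fold lower, adjusted p = 0.0402), class IIa deacetylases that repress MEF2, and the calcineurin subunit Ppp3ca (1.23-fold lower, adjusted p = 0.0338) fell. The falls numbered 0 without N1 or G1, and 1 without N2, G2 or G3 or with the length offset, and 1 gene rose without G1 or G2. With the length offset, Hdac4 (log2 −0.14, edgeR adjusted p = 0.236) and Ppp3ca (log2 −0.19, edgeR adjusted p = 0.1) did not pass. Of 18 coactivators and chromatin partners, 1 fell by edgeR, Tead3 (1.26-fold, adjusted p = 0.0175), and 0 rose by edgeR, DESeq2 or limma-voom, with 8 at an unadjusted p under 0.05, a share near the 40.6% of all tested genes. With the block 4 rose and 6 fell, near the 48.1% of all genes called in either direction. Without N1, N3, G1 or G2 none fell, without N2 there were 3 lower and 1 higher, and without G3 there were 2 lower.

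Genes of muscle differentiation, called fibre genes below, moved upward more often than downward. The list also holds Des, Cdh15, Itga7 and Chrna1, used above as myoblast markers. Of 45 tested, 14 rose, 1 fell and 30 did not pass, with a median log2 change of 0.39; the background was 12.4% higher over all tested genes. With the block 35 rose and 3 fell, where 23.5% and 24.6% of all genes did, and DESeq2 called 22 higher. The myoglobin gene Mb and the glycogen and glycolysis genes Pygm and Eno3 had the largest rises (log2 1.47, 1.64 and 1.57; edgeR adjusted p = 0.00337, 0.000122 and 0.000219). Smaller rises were those of Cdh15, which encodes M-cadherin (log2 0.54, adjusted p = 0.0054), the laminin receptor gene Itga7 (log2 0.72, adjusted p = 0.00639), embryonic myosin Myh3 (log2 0.62, adjusted p = 0.022) and the fast troponin Tnni2 (log2 0.83, adjusted p = 0.0239). Cav3, the muscle caveolin, fell from 52.2, 47.6 and 45.3 CPM in GFP to 12.1, 15.6 and 17 CPM, 3.25-fold (adjusted p = 0.000242). Some classical Myog and MEF2 targets did not pass without the block: Ckm stood at 701 against 495 CPM (edgeR adjusted p = 0.101; 0.000743 with the block) and the fusion gene Mymk at 763 against 569 CPM (0.118; 0.00259 with the block). Others passed in neither fit: Mymx stood at 50.2 against 53.6 CPM (edgeR adjusted p = 0.509; 0.384 with the block) and Chrng at 599 against 556 CPM (0.787; 0.451). Genes higher numbered 9 without N1 or G2, 7 without N3 or G1, and 28 without G3, and genes lower numbered 2 without N2, G2 or G3.

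Set against the mean of the GFP libraries, the median log2 level of these fibre genes was 0.34, 0.31 and 0.51 in N1, N2 and N3 and −0.22, −0.05 and 0.27 in G1, G2 and G3. The level of Myod1 on the same scale was 0.42, 0.30 and 0.44 in HA-NUR77 and −0.23, −0.07 and 0.30 in GFP, with G3 the highest control library in both. That of Myog was −0.26, 0.16 and 0.08 against −0.20, 0.09 and 0.11, with replicate 1 lowest in both groups. G3 was the highest control library for Myog too, by little over G2.

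**Figure D4:**
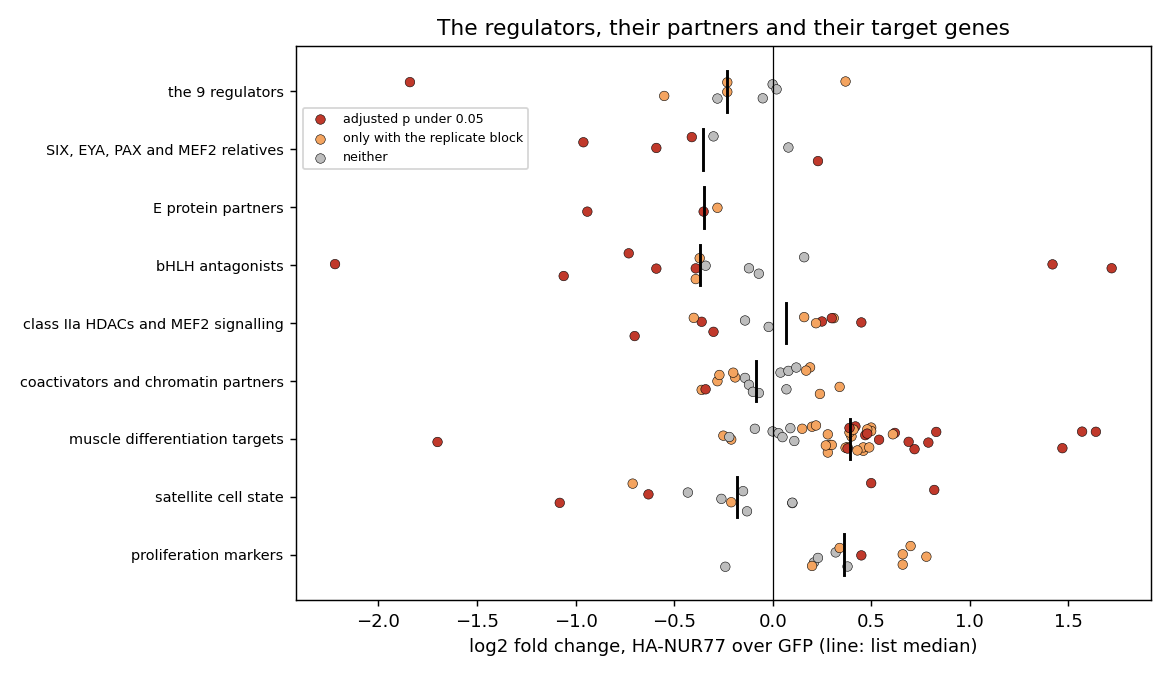
Fitted log2 fold change of HA-NUR77 over GFP for every tested gene of each list (vertical jitter only separates points); red points have an adjusted p under 0.05, orange points only with the replicate block, and the black line is the list median. The fibre genes centre on a median of 0.39 and the bHLH antagonists on −0.37, with Id3 at −2.22 and Cav3 at −1.70 as the lowest points of their lists.

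Of 12 tested genes of the satellite cell state, 2 rose and 2 fell, and 2 rose and 4 fell with the block, near the 25.6% and 48.1% of all tested genes called in either direction. The chemokine receptor Cxcr4 fell 2.12-fold (edgeR adjusted p = 0.000851) and the growth factor antagonist Spry1 1.55-fold (adjusted p = 0.0054), and Notch1 (1.41-fold, adjusted p = 0.0314) and Cd34 (1.76-fold, adjusted p = 0.0388) rose. Genes higher numbered 1 with no filter and without N1, N3 or G2, and 0 without the other 3 libraries. Of 12 proliferation markers 1 rose, the replication factor Mcm2 (1.36-fold, adjusted p = 0.028), and 7 with the block, beside 12.4% and 23.5% of all tested genes; 0 were higher without N1, N2, G1 or G3, 4 without G2, and 2 by DESeq2. Set against that mean, their median log2 level was 0.16, 0.89 and 0.28 in HA-NUR77 and −0.22, 0.75 and −0.51 in GFP, so both libraries numbered 2 stood above the rest. Their part in the levels of the 9 regulators was not tested.

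Pstpip2, Gsr and Ric8a were among the genes whose 6 library values were most like those of Myod1, each taken relative to its own GFP mean. They lay within a root-mean-square log2 difference of 0.0472 to 0.0586 of Myod1, out of 9953 genes compared over the 6 libraries. For Myog the nearest were Alg3, Abcc10, Zw10, Prune1 and Alpk2, at 0.053 to 0.0586. Among the regulators themselves the one nearest to Myog was Mef2d, at 0.127, and the farthest Myf6, at 1.29; Myod1 was 0.336 from Myog, farther than Myf5, Mef2a, Mef2d or Six4.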

How the data were processed

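The deposited values are read counts per Ensembl gene, 1 table per library and not normalised, and the submitters' processing notes name TopHat2 2.1, HTSeq, DESeq2 and build mm10. The annotation release and the strand setting of the counting are not given in the sources used here. Symbols came from GENCODE M21 for 22872 of 23154 IDs, and exon lengths and gene coordinates from the same release (GRCm38). Promoter windows came from RefSeq (GRCm38.p6).

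The main fit was edgeR 4.0.16 (R 4.3.3), quasi-likelihood with robust fitting, TMM factors, filterByExpr with a minimum count of 10, and group as the only term. P-values were adjusted by Benjamini-Hochberg over 12509 genes, with a threshold of 0.05. SE is the log2 fold change divided by the root of F, and 95% intervals use the fit's degrees of freedom. The main and block fits were also run on simulated counts with 200 changed genes. The simulation had no replicate-number effect and no length trend, so it does not bear on the block or offset calls. Alternatives used DESeq2 1.42.0, limma 3.58.1 (voom), other scalings, filters, thinned counts, a lowess offset in exon length (span 0.3), the block and the omission of each library. Log2 levels by library add 0.5 reads.

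The labels give both groups the numbers 1 to 3 without saying what a number marks. Deviations from group means correlated at 0.23, 0.53 and 0.45 across genes between same-numbered libraries, and the other 6 matches gave −0.42 to −0.05, so the pairing is taken from the data. Deviations cancel within each group, so the negative values follow in part from the positive ones and are not separate evidence. Within groups, libraries differed beyond sampling noise (chi-square per degree of freedom at least 11.4), and each counts as 1 replicate, from its own dish of 1 line.

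The genes and lists were chosen with earlier results of these data known. Of each list the 3 genes with the smallest adjusted p were named, or all where 5 or fewer passed in a direction. Mb, Cdh15, Itga7, Myh3, Tnni2, Ckm, Mymk, Mymx, Chrng, Tcf12 and Pax3, and the MEF2 core motif, were added after values or sequence were seen. The genes most like Myod1 and Myog were sought among tested genes averaging 5 CPM or more. A few genes that the naming rule selects are not reported here. Lists are described by counts and medians, with no test of the list.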

Additional observations from a re-analysis of the deposited data

How the results depend on the processing

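With 3 libraries a group, calls near the threshold depended on the fit; Pax7, Mef2d and Six4 passed in none. Where calls differed, the cause was not tested. Myog turned sign around 0, at a log2 of 0.02 with upper-quartile factors, 0.01 with library totals only and 0.00202 with no filter. DESeq2 brought Myod1 (0.37) and Mef2c (−0.55) past the threshold. The replicate block did so for Myod1 (0.39), Myf5 (−0.23), Mef2a (−0.24) and Mef2c (−0.55), and the length offset with replicate block for Myod1 (0.27), Myog (−0.16), Myf5 (−0.34) and Mef2c (−0.34).

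Of the 9 genes, 1 was higher with DESeq2, the block, and the length offset with block, and 2, 4 and 4 were lower. With a mean CPM of at least 1, and with thinned counts, 0 were lower, since Myf6 was not tested there. Over all genes 2942 were higher and 3071 lower with the block, and 2762 and 2854 with offset and block.

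Among the lists, the block gave 6 genes acting on MEF2 higher, 4 coactivators higher and 6 lower, 35 fibre genes higher and 3 lower, 4 satellite genes lower and 7 proliferation markers higher. Offset and block gave 9 bHLH antagonists lower, 6 genes acting on MEF2 higher, 4 coactivators higher and 4 lower, 33 fibre genes higher and 4 lower, 4 satellite genes lower and 6 proliferation markers higher. DESeq2 gave 2 coactivators lower, 22 fibre genes higher and 2 proliferation markers higher. With no filter 0 relatives and 1 satellite gene were higher and 3 fibre genes lower. Upper-quartile factors and library totals each gave 1 E protein lower and 1 coactivator higher, as thinned counts did for coactivators, and the length offset gave 1 gene acting on MEF2 lower.

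Leaving out each library in turn, the log2 change ran from 0.26 to 0.53 for Myod1, −0.09 to 0.12 for Myog, −0.32 to −0.15 for Myf5, −2.15 to −1.30 for Myf6, −0.41 to −0.07 for Pax7, −0.31 to −0.15 for Mef2a, −0.74 to −0.39 for Mef2c, −0.12 to 0.03 for Mef2d and −0.08 to 0.13 for Six4. Of the 9, 0 to 1 were higher and 0 to 1 lower, and over all genes 642 to 1489 and 850 to 1572. Relatives ran from 0 to 1 higher and 1 to 3 lower, E proteins from 1 to 3 lower, bHLH antagonists 2 to 2 higher and 4 to 5 lower, genes acting on MEF2 1 to 3 higher and 0 to 2 lower, and coactivators 0 to 1 higher and 0 to 3 lower. Fibre genes ran from 7 to 28 higher and 1 to 2 lower, satellite genes 0 to 1 higher and 2 to 2 lower, and proliferation markers 0 to 4 higher. The difference in family share ran from −4.32 to −1.35 points for Myog and −7.76 to −4.81 for Mef2c.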
